A study of Homo sapiens with 4 samples.

Results

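In NK-92, a line of human natural killer (NK) cells, 5 genes were examined because the difference between an OGT-edited line and its wild type depended on the time since interleukin 2 (IL-2) was given. The genes were AP5B1, CPXM2, GCSAM, CRNN and TC2N, 5 of 61860 genes in the count table. They were picked from the measured values themselves: their ratio of edited to wild-type level differed by over 2 log2 units between the 2 times, and they are not interferon genes. That difference is therefore given below as a description, with no test. All 5 symbols matched exactly 1 gene identifier in both deposited tables.

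The edited line, called ΔOGT-ISS here, had an intronic splicing silencer (ISS) of OGT removed with CRISPR-Cas9, and the wild-type line (WT) had not. Total RNA was sequenced from 4 libraries, 1 for each combination of line and time: ΔOGT-ISS and WT with IL-2 given 48 h before extraction, and ΔOGT-ISS and WT with IL-2 given 24 h before it. All 4 cultures were NK-92 grown in medium that contains recombinant human IL-2. Only the 24 h libraries carry IL-2 in their titles, whereas the treatment labels give it to all 4, and the times used here come from those labels. The labels do not say whether the edited line is 1 clone, and with 1 edited line a difference cannot be assigned to the edit alone.

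O-GlcNAc is a single sugar that the enzyme OGT attaches to proteins of the nucleus and cytoplasm. IL-2 is the growth factor that NK-92 depends on, and it signals through a receptor that activates the kinases JAK1 and JAK3 and the transcription factor STAT5. The 5 genes have different known roles: AP5B1 encodes a subunit of a membrane-trafficking adaptor, CPXM2 a secreted carboxypeptidase-like protein, GCSAM a signalling adaptor known from germinal-centre B cells, CRNN a protein of squamous epithelium, and TC2N a protein with tandem C2 domains.

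At 48 h the ΔOGT-ISS library held 11305599 counts and the WT library 10889986, and at 24 h the ΔOGT-ISS library held 28576566 and the WT library 24809269, so the 48 h libraries were the shallower pair. Levels are CPM, counts scaled to a fixed library total, after TMM normalization, which scales libraries to a common composition. OGT itself, the targeted gene, stood at 397 CPM in ΔOGT-ISS against 445 CPM in WT at 48 h, and at 383 CPM in ΔOGT-ISS against 448 CPM in WT at 24 h. A count per gene adds up spliced and intron-retaining forms of OGT and is thus no check on the deleted intronic element. All 10 NK markers listed, among them NKG7 and PRF1, reached 1 CPM in at least 1 library, and they summed to 2327 to 3918 CPM. The 7 T cell markers summed to 211 to 341 CPM, with CD3D, CD4 and CD8A below 1 CPM in every library. The summed level of 8 myeloid markers was 609 CPM in ΔOGT-ISS against 824 CPM in WT at 48 h, against 47.5 CPM in ΔOGT-ISS against 314 CPM in WT at 24 h. S100A9 alone held 95.5% of that sum in ΔOGT-ISS and 94.2% in WT at 48 h, and 81.5% in ΔOGT-ISS and 91.9% in WT at 24 h. CD14, LYZ, CD68 and FCGR1A stayed below 1 CPM in every library. The part of this difference in the values of the 5 genes was not tested. In such bulk libraries, fewer cells of a type and less RNA per cell cannot be told apart.

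AP5B1 and CPXM2 were both high in a single library, WT at 24 h, and low in the other 3. AP5B1 (ENSG00000254470, chromosome 11, 65775893 to 65780802, minus strand, GRCh38) encodes the beta subunit of AP-5, an adaptor complex of late endosomes and lysosomes. It had 25 counts in ΔOGT-ISS and 8 in WT at 48 h, and 24 in ΔOGT-ISS and 309 in WT at 24 h. The levels were 2.18 CPM in ΔOGT-ISS against 0.754 CPM in WT at 48 h, and 0.825 CPM in ΔOGT-ISS against 12.5 CPM in WT at 24 h. WT at 24 h thus lay far above the other 3 libraries, whose levels were within a few CPM of each other. The ratio of ΔOGT-ISS to WT was 2.89 at 48 h (95% interval 1.27 to 7.42) and 0.0660 at 24 h (0.0416 to 0.100). The line difference therefore had opposite directions at the 2 times, and the 48 h side of it rests on 25 counts in ΔOGT-ISS and 8 in WT. The 48 h ratio was 42.8 times the 24 h ratio (16.6 to 123), and the log2 difference, with a small prior count, was 5.17. These intervals, like all others below, cover counting error only, since there was 1 library per combination, and reads without molecular identifiers are not independent molecules.

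CPXM2 (ENSG00000121898, chromosome 10, 123706207 to 123940267, minus strand) belongs to the M14 carboxypeptidases, but lacks residues needed for catalysis, and carries a discoidin domain. It had 8 counts in ΔOGT-ISS and 10 in WT at 48 h, and 3 in ΔOGT-ISS and 324 in WT at 24 h. The levels were 0.699 CPM in ΔOGT-ISS against 0.943 CPM in WT at 48 h, and 0.103 CPM in ΔOGT-ISS against 13.1 CPM in WT at 24 h. The gene was near its detection limit in every library but WT at 24 h. Its ratio of ΔOGT-ISS to WT was 0.741 at 48 h (0.254 to 2.09), an interval that includes 1, and 0.00786 at 24 h (0.00161 to 0.0232). The 48 h ratio was 88.9 times the 24 h ratio (18.2 to 599), a log2 difference of 5.60.

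The difference that picked AP5B1 and CPXM2 can be read along time within each line, and is then no further result. In ΔOGT-ISS the 48 h level of AP5B1 was 2.65 times the 24 h level (1.45 to 4.84), and that of CPXM2 was 6.78 times (1.63 to 39.7). In WT the 48 h level was 0.0603 of the 24 h level for AP5B1 (0.0258 to 0.120) and 0.0719 for CPXM2 (0.0341 to 0.134). Both genes were thus higher at 48 h than at 24 h in ΔOGT-ISS and lower at 48 h than at 24 h in WT. An antisense gene inside CPXM2, ENSG00000231138, had 0, 0 and 0 counts in ΔOGT-ISS at 48 h, WT at 48 h and ΔOGT-ISS at 24 h, and 12 in WT at 24 h. Whether counting used the strand is not given in the sources used here, so reads of CPXM2 and of this gene cannot be told apart. The summed level of 6 fibroblast markers was 5.76 CPM in ΔOGT-ISS against 2.17 CPM in WT at 48 h. At 24 h it was 0.791 CPM in ΔOGT-ISS against 1.78 CPM in WT. It was highest in ΔOGT-ISS at 48 h, and at 24 h it was higher in WT, as CPXM2 was. These sums hold only 23 to 66 counts per library, with COL3A1, LUM and PDGFRA below 1 CPM in every library. Their part in the CPXM2 values was not tested.

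GCSAM was the gene with the reverse picture, high in ΔOGT-ISS at 24 h. It lies on chromosome 3 (ENSG00000174500, 112120841 to 112133305, minus strand) and encodes an adaptor that in germinal-centre B cells modulates receptor signalling and restrains cell motility. It had 49 counts in ΔOGT-ISS and 17 in WT at 48 h, and 326 in ΔOGT-ISS and 12 in WT at 24 h. The levels were 4.28 CPM in ΔOGT-ISS against 1.60 CPM in WT at 48 h, and 11.2 CPM in ΔOGT-ISS against 0.486 CPM in WT at 24 h. Both ΔOGT-ISS libraries lay above both WT libraries, by more at 24 h. The ratio of ΔOGT-ISS to WT was 2.67 at 48 h (1.51 to 4.94) and 23.1 at 24 h (13.0 to 45.1). The 48 h ratio was 0.117 of the 24 h ratio (0.0477 to 0.277), a log2 difference of -2.90. The same difference can be read along time and is then no further result. The 48 h level was 0.382 of the 24 h level in ΔOGT-ISS (0.277 to 0.517) and 3.30 times it in WT (1.49 to 7.57).

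C3orf52, a protein-coding gene on the other strand, overlaps GCSAM. It had 20 counts in ΔOGT-ISS and 0 in WT at 48 h, and 28 in ΔOGT-ISS and 2 in WT at 24 h, so it too was higher in ΔOGT-ISS at both times. With the strand setting unknown, the GCSAM values are uncertain to that extent, although C3orf52 had far fewer counts at 24 h. The summed level of 8 B cell markers was 63.9 CPM in ΔOGT-ISS against 80.1 CPM in WT at 48 h, and 81.2 CPM in ΔOGT-ISS against 54.1 CPM in WT at 24 h. Of these markers MS4A1, CD79B, BLK and FCRLA were among those below 1 CPM throughout.

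CRNN and TC2N were higher in WT at 48 h and higher in ΔOGT-ISS at 24 h. CRNN (ENSG00000143536, chromosome 1, 152409243 to 152414263, minus strand) encodes cornulin, a calcium-binding protein of the S100 fused-type family known from late differentiation of squamous epithelium. It had 62 counts in ΔOGT-ISS and 222 in WT at 48 h, and 44 in ΔOGT-ISS and 16 in WT at 24 h. The levels were 5.41 CPM in ΔOGT-ISS against 20.9 CPM in WT at 48 h, and 1.51 CPM in ΔOGT-ISS against 0.648 CPM in WT at 24 h. Both 48 h libraries thus lay above both 24 h libraries. The ratio of ΔOGT-ISS to WT was 0.259 at 48 h (0.192 to 0.344) and 2.34 at 24 h (1.29 to 4.43), and neither interval includes 1. The 48 h ratio was 0.112 of the 24 h ratio (0.0549 to 0.218), a log2 difference of -3.03.

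In both lines CRNN was higher at 48 h than at 24 h, 3.58 times in ΔOGT-ISS (2.39 to 5.39) and 32.3 times in WT (19.5 to 57.5). The antisense gene FLG-AS1, which overlaps CRNN, had 14 counts in ΔOGT-ISS and 5 in WT at 48 h, and 1 in ΔOGT-ISS and 2 in WT at 24 h, and its reads cannot be told apart from those of CRNN without the strand setting. The 12 measured markers of squamous epithelium summed to 7.42 CPM in ΔOGT-ISS against 10.7 CPM in WT at 48 h. At 24 h they summed to 1.58 CPM in ΔOGT-ISS against 3.44 CPM in WT. The sum was thus higher at 48 h in both lines, on 46 to 114 counts per library. It was higher in WT at both times, whereas CRNN was higher in ΔOGT-ISS at 24 h. IVL, on this list, was lower at 48 h in ΔOGT-ISS, with 1 count against 8 at 24 h. Of the 12 markers, 8 stayed below 1 CPM in every library, among them KRT4, KRT13, TP63 and EPCAM. The part of these transcripts in the CRNN values was not tested.

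TC2N (ENSG00000165929, chromosome 14, 91779751 to 91867536, minus strand) was the most abundant of the 5 genes in CPM and the one measured most precisely. It encodes a protein with a pair of C2 domains, a fold that in many proteins binds phospholipids. It had 532 counts in ΔOGT-ISS and 1408 in WT at 48 h, and 2479 in ΔOGT-ISS and 1372 in WT at 24 h. The levels were 46.5 CPM in ΔOGT-ISS against 133 CPM in WT at 48 h, and 85.2 CPM in ΔOGT-ISS against 55.5 CPM in WT at 24 h. No library was near 0, and the 2 lines changed places between the times. The ratio of ΔOGT-ISS to WT was 0.350 at 48 h (0.316 to 0.387) and 1.53 at 24 h (1.44 to 1.64). The 48 h ratio was 0.228 of the 24 h ratio (0.202 to 0.258), a log2 difference of -2.13 and the smallest of the 5. The 48 h level was 0.545 of the 24 h level in ΔOGT-ISS (0.496 to 0.599) and 2.39 times it in WT (2.22 to 2.58). CATSPERB overlaps TC2N on the same strand, with 28 counts in ΔOGT-ISS and 26 in WT at 48 h and 49 in ΔOGT-ISS and 26 in WT at 24 h.

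Promoter windows, 250 bases before to 50 after the start of transcription, are shown for 4 of the genes because AP5B1 and CPXM2 shared a pattern that GCSAM and CRNN did not. They come from RefSeq on GRCh38.p14, all on the minus strand: chr11:65780927-65781226 for AP5B1, chr10:123891758-123892057 for CPXM2, chr3:112133199-112133498 for GCSAM and chr1:152414214-152414513 for CRNN. The CPXM2 start in RefSeq lies inside the gene span given above. Capitals mark matches, on either strand, to TTCNNNGAA (the STAT5 motif), the interferon-stimulated response element, TATAAA (the TATA box), to the RUNX motif TGTGGT and to the GC box CCGCCC.
AP5B1: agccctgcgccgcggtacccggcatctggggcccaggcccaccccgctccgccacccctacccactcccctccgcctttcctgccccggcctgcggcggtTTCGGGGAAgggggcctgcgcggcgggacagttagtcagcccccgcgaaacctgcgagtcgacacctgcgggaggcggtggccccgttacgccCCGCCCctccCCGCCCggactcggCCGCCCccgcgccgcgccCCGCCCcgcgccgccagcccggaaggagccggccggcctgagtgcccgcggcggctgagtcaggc
CPXM2: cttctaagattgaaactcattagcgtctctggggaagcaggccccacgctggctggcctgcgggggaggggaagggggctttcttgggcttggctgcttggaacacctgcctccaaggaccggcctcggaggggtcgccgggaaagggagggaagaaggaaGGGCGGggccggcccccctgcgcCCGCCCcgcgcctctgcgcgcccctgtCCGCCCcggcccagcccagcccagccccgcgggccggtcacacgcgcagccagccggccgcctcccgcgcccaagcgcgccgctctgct
GCSAM: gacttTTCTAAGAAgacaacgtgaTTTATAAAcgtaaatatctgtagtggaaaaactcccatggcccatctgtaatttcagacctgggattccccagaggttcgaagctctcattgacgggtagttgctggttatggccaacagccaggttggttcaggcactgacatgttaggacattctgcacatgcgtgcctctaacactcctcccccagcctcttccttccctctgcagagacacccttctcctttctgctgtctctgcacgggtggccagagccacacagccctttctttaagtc
CRNN: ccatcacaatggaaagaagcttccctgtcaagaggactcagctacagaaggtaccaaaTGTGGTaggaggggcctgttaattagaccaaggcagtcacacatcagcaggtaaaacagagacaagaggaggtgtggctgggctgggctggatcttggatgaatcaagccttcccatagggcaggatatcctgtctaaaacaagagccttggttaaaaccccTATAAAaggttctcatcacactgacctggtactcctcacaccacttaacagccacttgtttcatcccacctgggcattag

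The AP5B1 and CPXM2 windows had 79.3% and 73.7% G and C, against 50% for GCSAM, 48.7% for CRNN and a median of 58.7% over 35116 promoters. They held 41 and 29 CG dinucleotides, against 6 in GCSAM and 0 in CRNN. AP5B1 held 4 GC boxes and CPXM2 held 3, and 45.0% of all promoters held at least 1. The STAT5 motif had 1 match in AP5B1 and 1 in GCSAM and is in 7.66% of all promoters. TATAAA had 1 match in CRNN, and 2 matches that overlap in GCSAM, and is in 11.5%. The RUNX motif had 1 match in CRNN and is in 13.1%. The letters of the interferon-stimulated response element, found in 3.57% of promoters, were in none of the 4 windows. TC2N, highest in WT at 48 h as CRNN was, has 2 listed starts. Of its windows, one has 75.3% G and C and 5 GC boxes, of which 2 overlap, and one has 50% and 3 RUNX matches. Whether the letters of the windows go with the levels was not tested. A match is a description of the letters in the window and not a bound site.

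Per length of transcript the order of the levels was different. In deposited FPKM, which scale counts by transcript length and library total, TC2N had 9.13 in ΔOGT-ISS and 25.1 in WT at 48 h, and 16.8 in ΔOGT-ISS and 10.7 in WT at 24 h. CRNN reached 10.7 FPKM in WT at 48 h, close to TC2N in WT at 24 h. The highest values were 3.69 FPKM for CPXM2 and 1.79 FPKM for AP5B1, both in WT at 24 h, and 3.48 FPKM for GCSAM in ΔOGT-ISS at 24 h. The lowest were 0.0296 FPKM for CPXM2 in ΔOGT-ISS at 24 h, 0.105 FPKM for AP5B1 in WT at 48 h, and 0.147 FPKM for GCSAM in WT at 24 h. On the log2(FPKM + 1) scale, which shrinks genes of low FPKM, the log2 difference was 1.57 for AP5B1 and -1.31 for GCSAM, under the threshold that chose them, and 2.12 for CPXM2.

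Among the 9319 genes with at least 10 CPM in 1 library, 116 had line ratios that differed by over 2 log2 units between the times, or 1.24%. Of these, 106 had the higher ratio at 48 h (1.14% of all) and 10 the higher ratio at 24 h (0.107%). AP5B1 and CPXM2 belong to the 106, where they ranked 5 and 3 by size. CRNN, GCSAM and TC2N belong to the 10, where they ranked 2, 3 and 8. Nothing is read from these shares, since the difference is what chose the genes. Over all 9319 genes the difference had a median of -0.04, and 95% of genes lay between -0.91 and 1.24. Of the 116 genes, 28 were on a list of 50 interferon genes, of which 44 reached 10 CPM. Just inside the threshold, among protein-coding genes off that list, were RAB11FIP4 at -2.00 and WASHC2A at 2.01, and just outside it RASGRP2 at -1.98 and CEBPB at 1.99.

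**Figure D1:**
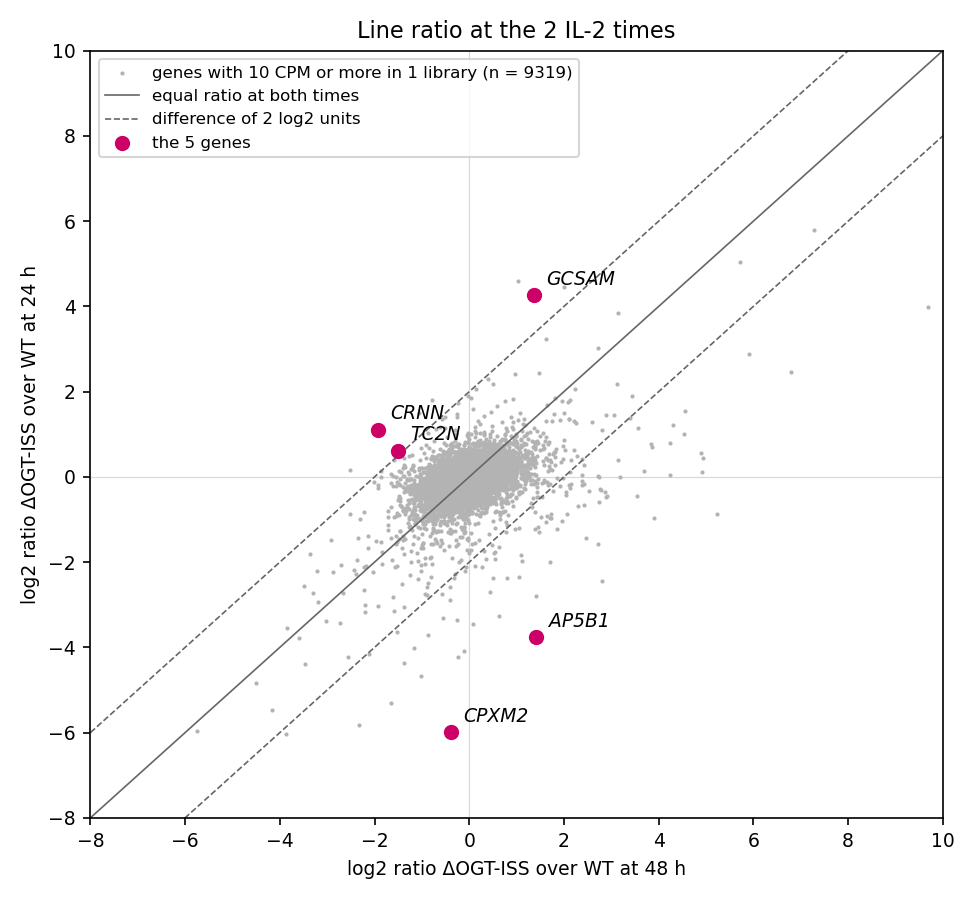
Log2 ratio of ΔOGT-ISS to WT at 48 h (x axis) and at 24 h (y axis) for 9319 genes with at least 10 CPM in 1 library (grey) and the 5 genes (magenta). The solid line marks equal ratios and the dashed lines a difference of 2 log2 units. AP5B1 and CPXM2 lie below the lower dashed line, at 5.17 and 5.60, and GCSAM, CRNN and TC2N above the upper one, at -2.90, -3.03 and -2.13.

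The 116 genes were also sorted by the library that lay farthest, on the log2 scale, from the mean of the other 3. AP5B1, CPXM2, GCSAM and CRNN reached 10 CPM in only 1 library, the one where each was highest. The genes were picked from these same values, so their place in this sorting is a description only. ΔOGT-ISS at 48 h was the high one for 33 genes, WT at 48 h the low one for 30 and ΔOGT-ISS at 24 h the low one for 29. WT at 24 h was the high one for 14, or 12.1%, against 10.4% of all. These 14 held AP5B1 (3.37 above the other 3) and CPXM2 (4.56 above). WT at 48 h was the high one for 3 genes (2.59%, against 17.2% of all), among them CRNN (3.48 above) and TC2N (1.14 above). WT at 24 h was the low one for 3 genes, or 2.59%, against 13.2% of all. Among them was GCSAM (2.89 on the log2 scale below the other 3, or -2.89). For GCSAM the order was narrow and rests on 12 counts in WT at 24 h, since ΔOGT-ISS at 24 h lay 2.78 above its other 3.

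The tests that the design allows average over 1 of the 2 factors: the line difference over both times, and the time difference over both lines. They used edgeR's quasi-likelihood test on 17492 genes with additive terms for line and time. The residual of that model holds the dependence on time that chose the 5 genes. A gene that misses the threshold is thus not shown to lack a difference. The 5 genes were also picked from these same values, so a pass in either test is no independent evidence of a difference. Between ΔOGT-ISS and WT, edgeR called 0.463% of genes, 0.149% as higher and 0.314% as lower in ΔOGT-ISS, and none of the 5. GCSAM stood at a log2 difference of 2.99 (SE 0.75, edgeR adjusted p = 0.179) and CPXM2 at -3.92 (SE 1.40, edgeR adjusted p = 0.417), with ratios above 1 for GCSAM and below 1 for CPXM2 at both times. With DESeq2 both passed, at 2.96 (adjusted p = 0.0149) and -3.67 (adjusted p = 0.0368), and both passed in edgeR with no filter on low counts. Neither passed with upper-quartile scaling (edgeR adjusted p = 0.160 for GCSAM and 0.403 for CPXM2) or without the time term. With limma on log2(FPKM + 0.1) or log2(FPKM + 1) neither passed. Leaving out 1 library, the log2 difference ran from 2.06 to 3.98 for GCSAM and from -6.03 to -1.31 for CPXM2. AP5B1, CRNN and TC2N, whose line ratios had opposite signs at the 2 times, stood at -1.60 (SE 1.24), -0.59 (SE 0.70) and -0.43 (SE 0.43), with edgeR adjusted p of 0.851, 0.925 and 0.902.

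Between 48 h and 24 h, edgeR called 25.9% of genes, 10.9% as higher and 15% as lower at 48 h. CRNN rose by 3.35 log2 units at 48 h (SE 0.72, edgeR adjusted p = 0.0128), with higher levels at 48 h in both lines. The other 4 did not pass: CPXM2 stood at -1.56 (SE 1.36), AP5B1 at -1.26 (SE 1.22), TC2N at 0.20 (SE 0.43) and GCSAM at -0.15 (SE 0.74), with edgeR adjusted p of 0.442, 0.488, 0.773 and 0.906. The CRNN call was lost without the WT 48 h library (2.31, edgeR adjusted p = 0.0558), the ΔOGT-ISS 24 h library (4.33, 0.0595) or the WT 24 h library (3.11, 0.110), in fits that also lack the line term, and with limma on log2(FPKM + 0.1) (3.17, limma adjusted p = 0.310) and log2(FPKM + 1) (2.12, 0.0978).

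Relatives and partners of the 5 genes were taken from lists chosen by name. Over all genes tested, the line test called 0.463%, and 10.9% rose and 15% fell at 48 h. At that share a short list may well hold 0 line calls, so nothing is read from such counts. The 5 genes were picked for a large difference between the times and their relatives were not. A place outside the range of the relatives is therefore a description only. The 5 other tested genes of AP-5 and its partners had log2 differences between the times of -0.24 to 1.05, against 5.17 for AP5B1. SPG11, which encodes spatacsin, a partner of AP-5, had 14.6 FPKM in ΔOGT-ISS against 14.2 FPKM in WT at 48 h, and 11.8 FPKM in ΔOGT-ISS against 18.4 FPKM in WT at 24 h. AP5M1, the medium subunit, ranged only from 7.16 to 8.01 FPKM over the 4 libraries. AP5Z1, the zeta subunit, had 5.86 FPKM in ΔOGT-ISS against 2.54 FPKM in WT at 48 h, and 9.39 FPKM in ΔOGT-ISS against 8.60 FPKM in WT at 24 h. Of the 6 genes of this list, 0 passed the line test, and AP5Z1 and AP5S1 fell at 48 h relative to 24 h (log2 -1.18, SE 0.26, and -1.11, SE 0.24, edgeR adjusted p = 0.0146 and 0.0140). All 23 tested subunits of the other adaptor complexes, led by AP2M1, AP2B1 and AP3D1, had differences between -0.86 and 1.36, and 0 passed the line test. At 48 h, 1 of the 23 rose and 5 fell, against 10.9% and 15% of all genes tested.

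Besides CPXM2, 3 M14 carboxypeptidases were tested, of 17 genes on that list. CPD, a carboxypeptidase of the trans-Golgi network, was by far the most abundant, with 60.6 FPKM in ΔOGT-ISS against 54.7 FPKM in WT at 48 h, and 24.8 FPKM in ΔOGT-ISS against 28.0 FPKM in WT at 24 h. CPD rose at 48 h (SE 0.17 log2 units, edgeR adjusted p = 0.00290), and its log2 difference between the times was 0.30. CPB2, known as a plasma carboxypeptidase from liver, had 8 counts in ΔOGT-ISS and 37 in WT at 48 h, and 52 in ΔOGT-ISS and 37 in WT at 24 h, a difference of -2.40 in the opposite direction to CPXM2. None of the 4 genes of this list passed the line test.

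Of 13 germinal-centre genes 8 were tested, and 0 passed the line test. MYBL1, a MYB-family transcription factor, had 48.9 FPKM in ΔOGT-ISS against 57.1 FPKM in WT at 48 h, and 42.1 FPKM in ΔOGT-ISS against 38.3 FPKM in WT at 24 h. RGS13, a regulator of G protein signalling, had 6.09 FPKM in ΔOGT-ISS against 2.96 FPKM in WT at 48 h, and 1.24 FPKM in ΔOGT-ISS against 0.597 FPKM in WT at 24 h, so that its line ratio was about equal at both times (difference 0.03). STAP1, a signalling adaptor, had a difference of 0.94. RGS13 and BCL6 rose at 48 h (log2 2.32, SE 0.43, and 1.43, SE 0.39, edgeR adjusted p = 0.00748 and 0.0330). The other 7 tested genes had differences of -0.39 to 2.36, and GCSAM at -2.90 lay below all of them.

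Of the 7 S100 fused-type genes 3 were tested: CRNN, FLG2 and FLG. The filaggrin gene FLG had 11 counts in ΔOGT-ISS and 8 in WT at 48 h, and 2 in ΔOGT-ISS and 8 in WT at 24 h. Its relative FLG2 had 9 counts in ΔOGT-ISS and 13 in WT at 48 h, and 0 in ΔOGT-ISS and 1 in WT at 24 h. FLG2 passed as higher at 48 h (edgeR adjusted p = 0.0398) along with CRNN, and 0 of the 3 passed the line test. Of 30 genes with tandem C2 domains 11 were tested and 0 passed the line test. The most abundant, ESYT2, SYT11 and ESYT1, had differences of 0.09, 0.48 and -0.02. SYTL2 and SYTL3, synaptotagmin-like proteins, rose at 48 h and ESYT1 and UNC13D fell. Of the 10 other than TC2N, 1 had a difference past 2 log2 units, DOC2A at 2.92, which had 8 counts in ΔOGT-ISS and 0 in WT at 48 h.

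Over all 17492 genes tested, including those of low count, 8.89% had a difference past 2 log2 units in either direction, and the median was 0.03. Of the 47 interferon genes tested, 29 were past it, with a median of 2.47. By the line test 2 of the 47 rose in ΔOGT-ISS and 0 fell, against 0.149% and 0.314% of all genes tested. At 48 h, 9 of the 47 rose and 1 fell, against 10.9% and 15%. ISG15, IFI27 and BST2, the most abundant of that list per length, had differences of 2.69, 4.35 and 0.37.

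**Figure D2:**
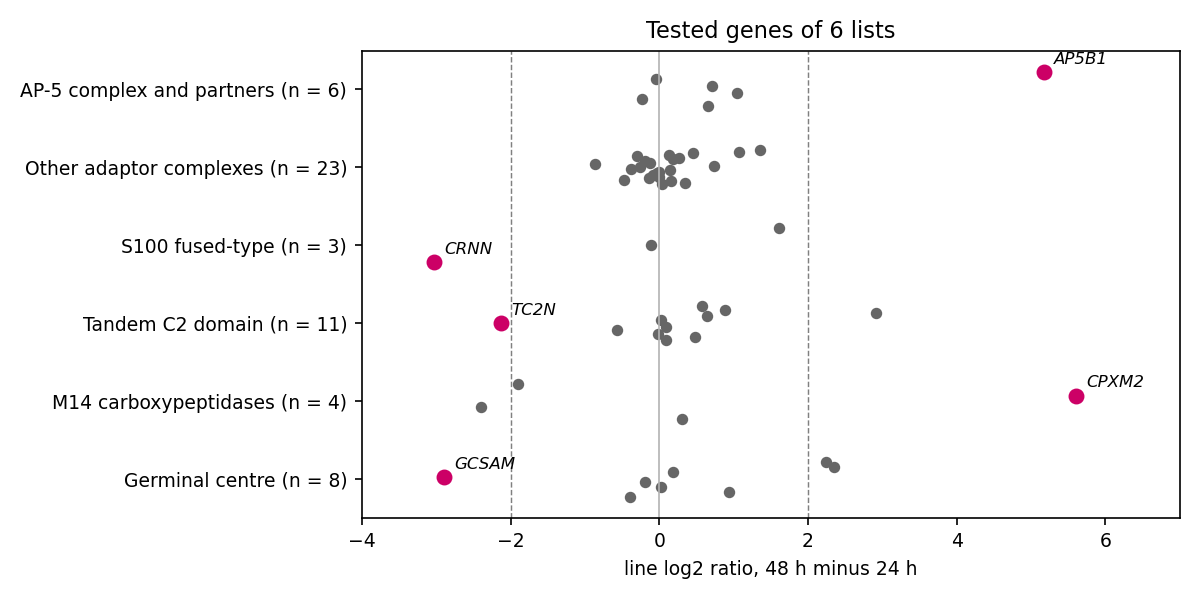
Difference of the line log2 ratio between 48 h and 24 h for each tested gene of 6 lists, one row per list, with the 5 genes in magenta and their relatives in grey; dashed lines mark 2 log2 units. AP5B1 at 5.17 and CPXM2 at 5.60 lie to the right of all their relatives, and GCSAM at -2.90, CRNN at -3.03 and TC2N at -2.13 to the left of theirs. The 5 genes were picked for this difference, so their place is a description only. The relatives of CRNN are FLG and FLG2, with 0 to 13 counts per library.

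The genes around each locus were then examined, as 20 protein-coding neighbours per gene, 10 on each side, that reached 1 CPM in at least 1 library. Around AP5B1 the differences ran from -0.73 to 1.91 with a median of 0.21. RNASEH2C, 54.9 kb away, had a difference of -0.73 and CFL1, 42.2 kb away, one of -0.11. Around CPXM2 they ran from -1.56 to 1.46 with a median of -0.09. BUB3 and LHPP, the nearest expressed genes at 536 and 522 kb, stood at -0.22 and -1.56. None of these 40 neighbours passed 2 log2 units. Of genes with 10 CPM in 1 library 1.24% did, and of all genes tested 8.89%, so nothing is read from that count.

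Around GCSAM the median was -0.23 and 1 of 20 neighbours passed 2 log2 units, in the opposite direction (3.17). The overlapping C3orf52 stood at 1.62 on few counts and ATG3, 399 kb away, at -0.34. Around TC2N the median was 0.05. FBLN5, only 1.88 kb away, had a difference of -2.43 but 4 counts in ΔOGT-ISS and 12 in WT at 48 h, and 10 in ΔOGT-ISS and 3 in WT at 24 h. CATSPERB stood at -0.63. Around CRNN the differences ran from -4.34 to 3.59 with a median of -0.11. There 8 of 20 neighbours passed 2 log2 units, in both directions. Of all genes tested 8.89% did, and of genes with 10 CPM in 1 library 1.24%. Neighbours needed only 1 CPM in 1 library, and whether the genes of this locus change together was not tested. Its nearest neighbours FLG2 and IVL, at 49.2 and 494 kb, stood at -0.11 and -1.70, on 0 to 30 counts per library.

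Genes most like each of the 5 were taken by the distance between log2 CPM profiles over the 4 libraries, each centred on its mean, among protein-coding genes with 10 CPM in 1 library. For AP5B1 they included CRYBG2 (distance 0.656) and PIK3R6 (1.50). CRYBG2 had 2.10 CPM in ΔOGT-ISS against 1.32 CPM in WT at 48 h, and 1.34 CPM in ΔOGT-ISS against 13.9 CPM in WT at 24 h, nearly the levels of AP5B1 itself. For CPXM2 they were ALDH1L1 (1.64), IL31RA (1.74) and AP5B1 (2.07), and no gene was as close to it as those near the other 4. For GCSAM the nearest was ALCAM (0.753), with a log2 difference between the times of -1.60. ALCAM had 19.1 CPM in ΔOGT-ISS against 6.13 CPM in WT at 48 h and 32.8 CPM in ΔOGT-ISS against 3.40 CPM in WT at 24 h, higher in ΔOGT-ISS at both times. For CRNN they were RBMS3 (1.12), BNIP3L (1.20) and P4HA1 (1.23), which were higher at 48 h in both lines. Their log2 differences between the times were -1.91, -1.08 and -0.73, short of the 2 log2 units that chose CRNN. For TC2N they were CD83 (0.440), CD93 (0.456) and SUV39H2 (0.501), with differences of -1.62, -1.34 and -1.16, also short of 2 log2 units. With 4 libraries such a distance is a description only.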

How the data were processed

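Per the labels' protocols, RiboCop removed ribosomal RNA from the total RNA of 4 NK-92 libraries, which were then built with a CORALL V2 kit. Per the submitters' processing notes, the tools were HISAT2 2.2.0, SAMtools 1.15.1 and featureCounts 2.0.1 and the build was hg38, with no roles or options stated. Neither the strand setting nor the annotation release is stated there. The authors deposited raw counts per Ensembl gene. The FPKM values the authors deposited equal the count divided by that table's transcript length and by the counts summed over its 60675 rows (11297973 for ΔOGT-ISS at 48 h), to within 1.9e-05 percent in each library. No columns belonged to other samples.

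Symbols came from the deposited FPKM table and then a reference name table, positions from GENCODE on GRCh38. Counts were normalized by TMM in edgeR 4.0.16 (R 4.3.3). Single-library log2 ratios used a prior count of 2, ratio intervals were exact conditional 95% intervals on counts, and levels had exact Poisson intervals. Tests were edgeR quasi-likelihood tests with terms for line and IL-2 time on genes kept by filterByExpr (minimum count 10), two-sided, Benjamini-Hochberg adjusted, threshold 0.05, with 1 residual degree of freedom. The code was tested on simulated data. DESeq2 1.42.0 and limma 3.58.1 (on FPKM with mean above 0.1) were alternatives. The labels do not mention separate cultures, so each p-value reflects only how these libraries vary, which may be technical.

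The 5 genes, the lists and the tests were chosen with earlier results of these data known. Genes named besides the 5 were the 3 nearest profiles of each (some are not reported here), the 3 of each list highest in mean FPKM, nearest expressed neighbours and the genes at the threshold. Others were named after their values were seen.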

Additional observations from a re-analysis of the deposited data

Results flagged for a closer look

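The line difference had opposite directions at the 2 times for 3 of the 5 genes. It also did so for 62.1% of the 116 genes past 2 log2 units. Over all 9319 genes with at least 10 CPM in 1 library the share was 40.3%. Nothing is therefore read from the 3 of 5. AP5B1 was higher in ΔOGT-ISS at 48 h and lower in it at 24 h, a difference of 5.17 log2 units between the times. CRNN and TC2N were lower in ΔOGT-ISS at 48 h and higher in it at 24 h, with differences of -3.03 and -2.13. Each direction rests on 1 library per line, the genes were picked for this difference, and it was not tested.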

How the results depend on the processing

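The 15 single-library values (2 ratios and their difference for each gene) kept their sign under all 8 other settings, and 14 of the 120 values lay outside their counting interval, mostly on log2(FPKM + 1). After thinning both 24 h libraries to 10889986 counts, TC2N stood at -1.98, short of 2 log2 units, and the other 4 stayed past it. On log2(FPKM + 1) only CPXM2 and CRNN (-2.03) stayed past it, with TC2N at -1.97. AP5B1, CPXM2 and GCSAM had a mean under 5 CPM, so a filter on that mean leaves them out. The count of 116 genes past 2 log2 units became 1555 when low-count genes were included, and lay between 105 and 127 under other scalings of the counts, prior counts, a mean of at least 5 CPM and thinning; on log2(FPKM + 0.1) it was 114 and on log2(FPKM + 1) it was 58. The 81 genes called between the lines became 303 with DESeq2, 546 with no filter, 0 without the IL-2 time term (242 at an unadjusted p under 0.05) and 0 with limma on either FPKM scale (780 and 1384 unadjusted). Leaving out 1 library, without the time term, gave 0 to 13. The 4535 genes called between the times became 0 with limma on log2(FPKM + 0.1) (4986 unadjusted) and 863 on log2(FPKM + 1), and 570 to 3545 without 1 library. Leaving out 1 library also turned signs of averaged differences. The line difference of AP5B1 ran from -3.09 to 0.97 (without WT at 24 h), that of CRNN from -2.85 to 2.39 (without WT at 48 h) and that of TC2N from -1.02 to 0.24 (without WT at 48 h). The time difference of AP5B1 ran from -3.10 to 0.83 and that of CPXM2 from -3.99 to 2.90 (both highest without WT at 24 h), that of GCSAM from -1.92 to 2.58 (without ΔOGT-ISS at 24 h) and that of TC2N from -0.60 (without WT at 48 h) to 0.94. CPXM2 passed as lower at 48 h without ΔOGT-ISS at 24 h (-3.99, edgeR adjusted p = 0.0247). The time difference of GCSAM was 0.068 with DESeq2, and that of TC2N was -0.017 with no filter. The cause of these changes was not tested beyond the samples and genes each setting removes. No paired analysis was possible because the labels give no replicate numbers; the time term of the edgeR model already compares the lines within each time. Depth limits AP5B1 and CPXM2 at 48 h, with 8 to 25 counts per library.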

Other observations

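Near CRNN on chromosome 1, S100A9, S100A8 and S100A12 had line ratios that depended on time in the direction opposite to CRNN. They were chosen after their values were seen, and other S100 genes among the same neighbours had differences in the direction of CRNN: S100A7A at -2.59, S100A7 at -0.60 and S100A10 at -0.60. S100A11 stood at 0.22. S100A9, 0.944 Mb from CRNN and a calcium-binding protein of myeloid cells, had 582 CPM in ΔOGT-ISS against 776 CPM in WT at 48 h, and 38.7 CPM in ΔOGT-ISS against 289 CPM in WT at 24 h, a difference of 2.48 log2 units. Its partner S100A8 had 16.0 CPM in ΔOGT-ISS against 29.3 CPM in WT at 48 h, and 0.756 CPM in ΔOGT-ISS against 11.2 CPM in WT at 24 h, a difference of 2.84. S100A12 had 250 counts in ΔOGT-ISS and 219 in WT at 48 h, and 3 in ΔOGT-ISS and 54 in WT at 24 h, a difference of 3.54. S100A9, S100A8 and S100A12 were higher at 48 h than at 24 h in both lines, as CRNN was. IVL, which encodes involucrin, a protein of the squamous cell envelope, had 1 count in ΔOGT-ISS and 22 in WT at 48 h, and 8 in ΔOGT-ISS and 30 in WT at 24 h, and was lower in ΔOGT-ISS at both times.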
